A study of Mus musculus with 3 samples.

Results

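The 9 receptor genes of the TREM, SIGLEC and paired inhibitory receptor families and the adaptor gene Tyrobp were followed through cytosolic RNA of mouse macrophages. The 10 genes (Tyrobp, Trem1, Trem2, Sirpa, Siglec1, Siglece, Cd33, Pirb, Lilrb4a and Cd300a) were taken by symbol from the identifiers of the deposited transcript tables and joined by gene identifier to the gene tables, which hold 55536 Ensembl genes. Each library was built from 1 µg of cytosolic RNA, depleted of ribosomal RNA, from macrophages grown from bone marrow. The cells came from C57BL/6J mice and had been exposed to 100 ng/ml Lipid A, the part of lipopolysaccharide that TLR4 recognises, for 10 minutes. All 3 libraries are replicates of this 1 group. No untreated cells and no nuclear fraction were analysed here, so each value is a level in stimulated cells and not a response. The labels give the 3 replicates the same donor identifier and do not say whether they came from separate cultures, so the spread between them may be partly technical. Sex and age were not collected. Expected counts over Ensembl genes totalled 33825547, 54667365 and 43176007 in replicates 1, 2 and 3.

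Paired receptors are families in which closely related activating and inhibitory members sit on the same myeloid cells. An activating receptor such as TREM2 has a short tail with no signal of its own and a lysine inside its membrane segment. The lysine holds an aspartate in the membrane segment of TYROBP (also called DAP12), whose tail carries an immunoreceptor tyrosine-based activation motif (ITAM) that recruits the kinase SYK when phosphorylated. Inhibitory members such as SIRPA, PIRB, LILRB4 and CD300A carry immunoreceptor tyrosine-based inhibition motifs (ITIMs), to which the phosphatases SHP-1, SHP-2 and SHIP1 bind.

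The coding stretches behind this division of roles were read from the GENCODE M21 transcripts on assembly mm10, and they are shown because the isoform results below turn on which of them a transcript keeps. Tyrosine codons are in capitals in the motif stretches. Lysine codons, and in Tyrobp the aspartate codon, are in capitals in the membrane stretches. A membrane stretch is the most hydrophobic part of the translated coding sequence, with a mean Kyte-Doolittle hydropathy of at least 1.6 over windows of 19 codons, leaving out the first 30 codons. Motifs were searched behind it in the translated sequence.
The Tyrobp ITAM (chr7:30415670-30417382, plus strand, across an intron) and the membrane stretch of Tyrobp (chr7:30414530-30414631, plus strand) read as follows.
Tyrobp ITAM: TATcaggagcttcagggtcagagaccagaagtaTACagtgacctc
Tyrobp membrane stretch: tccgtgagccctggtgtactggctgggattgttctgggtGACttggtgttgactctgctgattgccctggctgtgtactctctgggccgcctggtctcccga
The membrane stretches of Trem2 (chr17:48351759-48351848, plus strand), Trem1 (chr17:48244556-48244633, plus strand) and Cd33 (chr7:43529905-43530285, minus strand, across an intron) each hold a lysine codon within the hydrophobic run.
Trem2 membrane stretch: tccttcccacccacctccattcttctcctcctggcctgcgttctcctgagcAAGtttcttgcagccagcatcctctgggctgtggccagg
Trem1 membrane stretch: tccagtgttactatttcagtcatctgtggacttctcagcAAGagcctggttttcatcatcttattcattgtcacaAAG
Cd33 membrane stretch: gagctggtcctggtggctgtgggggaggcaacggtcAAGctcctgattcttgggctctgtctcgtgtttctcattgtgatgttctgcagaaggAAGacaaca
The inhibitory members carry the ITIM stretches below, from Sirpa (chromosome 2, plus strand), Pirb (chromosome 7, minus strand), Lilrb4a (chromosome 10, plus strand), Cd300a (chromosome 11, plus strand) and Siglece (chromosome 7, minus strand).
Sirpa, chr2:129629954-129629971: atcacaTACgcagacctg
Sirpa, chr2:129630077-129630094: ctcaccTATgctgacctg
Sirpa, chr2:129630149-129630166: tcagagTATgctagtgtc
Pirb, chr7:3713862-3714103, across an intron: agcctaTATgcttcagtg
Pirb, chr7:3712786-3712803: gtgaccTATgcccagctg
Pirb, chr7:3712696-3712713: agtgtaTATgctactctg
Lilrb4a, chr10:51496021-51496038: attgtcTACgcccaggta
Lilrb4a, chr10:51496194-51496211: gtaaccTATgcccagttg
Cd300a, chr11:114899846-114899863: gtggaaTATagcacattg
Cd300a, chr11:114901147-114901164: cttcacTATtcatccgtg
Siglece, chr7:43651585-43651602: atacatTATgcgaccctc
Sirpa and Siglece each hold 1 further stretch of the related switch motif type (chr2:129630026-129630043 and chr7:43651516-43651533). No ITIM was matched in the coding transcripts of Cd33, nor in Siglec1-201, the full-length transcript of Siglec1. Single lysine codons also lie in the stretches of Sirpa, Pirb and Lilrb4a, near an end.

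Ordered by level, the adaptor came first and 2 receptors were close to absent. Levels are TPM, the share of a library's transcripts after allowing for length, scaled to the same total in each library, from the alignment-based gene table. In all, 8 of the 10 genes reached 1 TPM in every library (percent of all genes that did so, 17.3, and of protein-coding genes, 41.6). Siglece and Trem1 stayed below 1 TPM in every library. In this bulk RNA, fewer cells with a transcript and less of it per cell cannot be told apart. The mean levels ran from Tyrobp, Sirpa and Trem2 through Pirb, Lilrb4a, Cd300a, Siglec1 and Cd33 down to Siglece and Trem1. For each of the 9 pairs of neighbours in this order, the higher gene was higher in 3 of 3 libraries and the ranges did not overlap. With signs flipped exactly over the libraries, a two-sided permutation test of log2(TPM + 1) gave p = 0.25 for each pair, also 0.25 after Benjamini-Hochberg adjustment over the 9 pairs. No smaller p is possible with 3 libraries, and no pair could therefore pass 0.05. The narrowest step above 1 TPM was Pirb over Lilrb4a, 0.35 ± 0.08 on the log2(TPM + 1) scale (SD, n = 3). The order of that pair rests on how reads were divided between Lilrb4a and the overlapping gene model Gm49339: the 2 together had 171 ± 9.77 TPM, above the 103 ± 3.11 TPM of Pirb (SD, n = 3). The widest was Cd33 over Siglece, 3.33 ± 0.37 on the same scale.

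**Figure D1:**
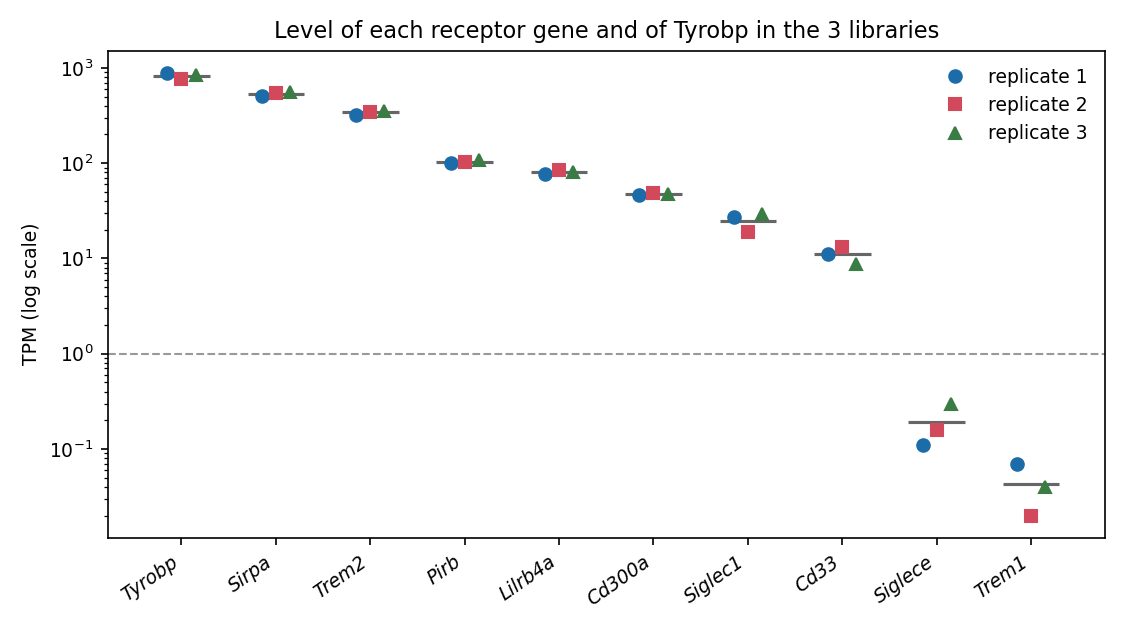
TPM of the 10 genes on a log axis, with a point for each of the 3 libraries and a bar at their mean; the dashed line marks 1 TPM. Tyrobp lies between 756 and 886 TPM, 8 genes lie above the line in every library, and Siglece and Trem1 lie below it.

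Tyrobp (ENSMUSG00000030579.10, chromosome 7, 30413760 to 30417585) was the highest of the set, at rank 34 of all genes by mean TPM. It had 886, 756 and 835 TPM in replicates 1, 2 and 3, a mean of 826 ± 65.3 (SD, n = 3), from 20031, 28616 and 22764 expected counts. In TPM, replicate 1 was the highest and replicate 2 the lowest, whereas in normalized counts replicate 3 was the lowest. The adaptor exceeded the summed TPM of the 3 members with a lysine codon within the membrane run, Trem1, Trem2 and Cd33, by 2.65, 2.11 and 2.29 times. Fcer1g, the common gamma chain of Fc receptors and the other main ITAM adaptor of myeloid cells, had 648, 534 and 519 TPM. The ratio of Tyrobp to Fcer1g was 1.47 ± 0.13 (SD, n = 3) and lay above 1 in every library. Hcst, the adaptor DAP10, whose gene lies beside Tyrobp on the opposite strand, had 9.51, 11.7 and 12.04 TPM. Cd79a and Cd247, the ITAM chains of B and T cell receptors, had means of 0.0467 and 0.0333 TPM, and Cd79b had 0.96 TPM.

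Trem2 (ENSMUSG00000023992.14, chromosome 17, 48346401 to 48354147), a receptor for lipids and apolipoproteins, was the highest of the activating receptors. It had 323, 345 and 356 TPM in the 3 libraries, a mean of 341 ± 16.7 (SD, n = 3). The libraries differed little, with the highest at 1.10 times the lowest. Trem1 (ENSMUSG00000042265.13, chromosome 17, 48232768 to 48246924), an amplifier of inflammatory responses on neutrophils and monocytes, had 0.07, 0.02 and 0.04 TPM from 8, 7 and 6 expected counts. The limit that a count of 0 allows, 3 counts, corresponds to 0.0262, 0.00857 and 0.02 TPM for this gene, which covers counting error only. Each library therefore held a few more counts than that limit, and Trem1 lay far below Trem2, at rank 15605 against rank 99. Of the 4 other TREM family genes that were matched, Treml2 had 3.50 ± 0.337 TPM (SD, n = 3), and Trem3, Treml1 and Treml4 stayed below 1 TPM in every library.

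Both coding transcripts of Trem2 were given reads in every library, and they differ in whether they encode a membrane segment. Trem2-201, which encodes the membrane stretch printed above, took 75.5%, 77.5% and 78.2% of the gene's TPM. Trem2-202 took 22.7%, 21.01% and 20.5%. Its exon 4 starts 55 bases earlier, at chr17:48351691-48351745, within its coding sequence, and the frame of the bases that follow is therefore shifted.
Trem2-202, added stretch: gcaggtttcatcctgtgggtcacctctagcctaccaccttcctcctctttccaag
The coding sequence of Trem2-202 is 747 bases long, that of Trem2-201 681 bases, and no window of Trem2-202 reached the hydropathy threshold. In the second transcript table, which the authors derived from the reads directly, Trem2-202 took 22.9%, 20.6% and 20.6%. The share of this isoform thus differed between both quantifications by less than 1 percentage point in each library.

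Cd33 (ENSMUSG00000004609.11, chromosome 7, 43524216 to 43544428), a sialic acid receptor that is inhibitory in humans but lacks the canonical ITIM in mice, had 11.1, 13.3 and 8.79 TPM. Replicate 2 was the highest and replicate 3 the lowest, and the mean was 11.1 ± 2.25 TPM (SD, n = 3). Its 2 main coding transcripts encode different tails. Cd33-201 holds 83 coding bases (chr7:43529473-43529555) that Cd33-203 lacks, and its coding sequence is 1209 bases long against 1002 in Cd33-203. How the reads were divided between them depended on the quantification. Cd33-203 took 68.3%, 67.7% and 73.1% of the TPM in the alignment-based table but 44.6%, 43.7% and 52.6% in the second table, while Cd33-201 took 4.77%, 6.63% and 2.62% against 31.4%, 31.1% and 25.1%. Summed, the pair took 74.4% ± 1.32 in the first table and 76.1% ± 1.46 in the second (SD, n = 3). Cd33-203 also has 3779 further bases at its 3′ end. The short processed transcript Cd33-206 took 22.3% of the TPM in the alignment-based table on 0.958% of the gene's counts.

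Sirpa (ENSMUSG00000037902.18, chromosome 2, 129592835 to 129632228), the receptor through which CD47 on a target cell restrains phagocytosis, was the highest of the inhibitory receptors. It had 501, 540.3 and 559 TPM, a mean of 533 ± 29.5 (SD, n = 3), and 94473, 160073 and 122721 expected counts, the most of the 10 genes. Its ligand gene Cd47 had 74.9, 71.3 and 78.1 TPM, and Sirpa exceeded it by 7.14 ± 0.45 times (SD, n = 3). The activating relatives were low, with Sirpb1c at 0.74, 0.79 and 0.97 TPM and Sirpb1a and Sirpb1b below it. Sirpa shares only 0.0392% of its 31-base words with any other gene, so few of its reads could belong to a relative.

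The 2 leading transcripts of Sirpa differed in noncoding ends, and how reads were divided between them depended on the quantification. Sirpa-214 took 23.2%, 39.4% and 42.7% of the TPM, and Sirpa-204 took 41.0%, 25.2% and 21.02%, so the leading transcript in the alignment-based table was Sirpa-204 in replicate 1 and Sirpa-214 in the other two. In the second table Sirpa-214 led in all 3 libraries, with 33.8%, 51.2% and 55.3%, and Sirpa-204 took 25.9%, 11.2% and 8.14%. Sirpa-214 was lowest in replicate 1 in both tables. These transcripts have the same coding sequence and differ by noncoding stretches of 75 and 71 bases at the 5′ end and 8 bases at the 3′ end. Their sum in the alignment-based table was 64.3%, 64.6% and 63.7%. Sirpa-201, with 12 more coding bases, took 13.1% ± 0.616 (SD, n = 3). Sirpa-202, which lacks 318 and 336 coding bases in the extracellular part, took 2.57%, 4.32% and 4.90%. All 8 coding transcripts of Sirpa with a membrane stretch hold the 3 ITIMs and the switch motif. The coding transcript Sirpa-208, at 0.0332% of the TPM, and the noncoding transcripts of the gene hold none of them.

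Pirb (ENSMUSG00000058818.13, chromosome 7, 3711409 to 3720391), an inhibitory receptor for MHC class I molecules, had 101, 102 and 107 TPM, a mean of 103 ± 3.11 (SD, n = 3). Most of it was assigned to transcripts annotated as retaining an intron. These took 66.0%, 69.2% and 64.5% of the TPM in the alignment-based table and 92.5%, 93.7% and 93.6% in the second table. Among the 5814 genes at 1 TPM or more that have such a transcript, the median share was 2.10% in the alignment-based table, and 1.58% of those genes were above 50%. The coding transcript Pirb-201 took 34.0%, 30.8% and 35.5% in the first table and 7.46%, 6.31% and 6.42% in the second. The largest retained-intron transcript, Pirb-202, took 44.8%, 45.2% and 42.0% in the first. It keeps 227 bases between exons 6 and 7 (chr7:3716891-3717117) and ends 1128 bases before the annotated 3′ end of Pirb-201, and 91.2% of its 31-base words also lie in Pirb-201. Pirb-202 thus differs from Pirb-201 in both the intron and the 3′ end, and how much of its share came from intronic reads was not tested. The bases of the 3 ITIM stretches lie in 4 of the 5 Pirb transcripts, but only in Pirb-201 are they part of an annotated coding sequence.

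Pirb belongs to a cluster of related genes on chromosome 7. Of its 31-base words, 44.1% occur in other genes, and at most 23.7% in any 1 of them (Gm14548). Pira2, an activating member that signals through the Fc receptor gamma chain, had 49.7, 54.8 and 51.5 TPM, and Pirb exceeded it by 1.99 ± 0.11 times (SD, n = 3). Of the 4 LILR and PIR relatives that were matched, 3 reached 1 TPM in all 3 libraries, and Lilra6 had 1.37, 1.5 and 1.48 TPM. The further copies Gm14548 and Gm15922, named after their values were seen, had 8.64, 8.71 and 9.39 TPM and 6.37, 6.27 and 6.42 TPM. The division of reads within the cluster is uncertain. With both tables scaled to the same total over protein-coding genes, Pirb had 451 ± 5.21 TPM in the second table and 416 ± 8.69 in the alignment-based one (SD, n = 3).

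Lilrb4a (ENSMUSG00000112148.1, chromosome 10, 51490956 to 51496611), the inhibitory receptor gp49B, had 76.3, 85.2 and 81.25 TPM, a mean of 80.9 ± 4.44 (SD, n = 3). Its full-length coding transcript, Lilrb4a-201, was listed at 0 TPM in every library. The largest share was assigned to Lilrb4a-205, annotated as a target of nonsense-mediated decay, which took 48.3%, 62.8% and 72.6% of the TPM and was lowest in replicate 1. Lilrb4a-205 shares all its inner exon borders with Lilrb4a-201 except that its first exon ends 5 bases later (chr10:51491052-51491056), and it has a coding sequence of 117 bases against 1005. The retained-intron transcripts took 42.9%, 23.5% and 21.3%, most in replicate 1.

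The zero of Lilrb4a-201 has to be read beside a neighbouring gene model. All 1351 of its 31-base words also lie in Gm49339-203, a transcript of a gene that spans Lilrb4a and its neighbour Lilr4b on the same strand (chromosome 10, 51480612 to 51496613). Gm49339-203, chosen after its values were seen, had 82.2, 82.9 and 97.5 TPM. A read within Lilrb4a-201 therefore matches Gm49339-203 as well, so the level of Lilrb4a coding RNA cannot be told apart from that of Gm49339. Of the 31-base words of Lilrb4a-205, 96.7% also lie in Gm49339-203, so the share of the decay class is uncertain as well. Summed over Lilrb4a and Gm49339, the gene table gave 171 ± 9.77 TPM (SD, n = 3). Lilr4b itself had 117, 124 and 115 TPM and was above Lilrb4a in every library. On the scale of protein-coding genes, the second table over the alignment-based one was −0.18, −0.30 and −0.28 (log2) for Lilrb4a alone but lay between −0.04 and −0.02 for Lilrb4a and Gm49339 together.

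Cd300a (ENSMUSG00000034652.12, chromosome 11, 114890041 to 114904654), an inhibitory receptor for aminophospholipids exposed on dying cells, had 45.8, 48.5 and 47.55 TPM, a mean of 47.3 ± 1.36 (SD, n = 3). In deposited TPM it had the lowest relative SD of the 10 genes, 2.87% of the mean, next to 3.01% for Pirb. In normalized counts Pirb spread less, with the highest library at 1.03 times the lowest against 1.11 times for Cd300a. The longer coding transcript, Cd300a-202, with 12 more coding bases than Cd300a-201, took 83.4% ± 0.769 of the TPM (SD, n = 3). Both hold the 2 ITIMs. Of the 11 related CD300 genes, 7 reached 1 TPM in all 3 libraries, and 2 of them were above Cd300a in every library. Of these, Cd300ld3 had 135, 157 and 189 TPM and Cd300c2 had 70.5, 69.4 and 72.5 TPM. Cd300lb and Cd300ld had means of 38.3 ± 2.72 and 32.5 ± 7.42 TPM, and Cd300lf, another inhibitory member, had 19.04 ± 2.19 TPM (SD, n = 3). Cd300ld4 and Cd300ld5 had 9.26 and 8.94 TPM, and the other 4 genes were below 1 TPM in every library. Cd300a shares 8.2% of its 31-base words with other genes.

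The sialic acid receptors lay lower. Siglec1 (ENSMUSG00000027322.11, chromosome 2, 131069220 to 131086765), the macrophage adhesion receptor sialoadhesin or CD169, had 27.0, 18.8 and 29.1 TPM, a mean of 25.0 ± 5.47 (SD, n = 3). Replicate 2 was the lowest. Siglec1-201 took 97.2% ± 0.616 of the TPM, and Siglec1-203, which ends before the membrane stretch of Siglec1-201, took 2.46% ± 0.348 (SD, n = 3). Siglece (ENSMUSG00000030474.9, chromosome 7, 43651070 to 43660161), an inhibitory receptor of mouse neutrophils and macrophages, had 0.11, 0.16 and 0.30 TPM from 12, 26 and 37 expected counts. The same limit of 3 counts corresponds to 0.0275, 0.0185 and 0.0243 TPM for it. All of these reads were assigned to Siglece-201, which holds 1 ITIM and 1 switch motif. Of the 6 other SIGLEC family genes, Cd22 had 2.67, 1.65 and 2.54 TPM and the others were below 1 TPM in every library.

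Among the members above 1 TPM, the libraries differed most in Siglec1 and Cd33. A chi-square test of rounded expected counts against TMM effective library sizes, adjusted by Benjamini-Hochberg over all genes that had at least 30 counts in sum, called 9 of the 9 members tested at 0.05. The test sets the libraries against Poisson counting error alone and takes reads as independent molecules, so a call means more spread than counting error and its p-value does not measure biological replication. Trem1, with 21 counts in all, was not tested. Of all 13494 genes tested, 49.2% were called, and the members above 1 TPM had 2772 to 160073 counts per library, at which small differences pass. Siglec1 had the highest normalized count at 1.44 times the lowest (adjusted p = 4.76e-226) and Cd33 at 1.56 times (adjusted p = 1.94e-79). Those ratios were above those of 93.7% and 95.6% of the 9602 genes at 1 TPM or more. Tyrobp, Sirpa, Trem2, Pirb, Lilrb4a and Cd300a differed by 1.03 to 1.14 times, where the median gene differed by 1.12 times. An intercept-only edgeR model gave coefficients of variation of 14.2% for Siglec1 and 14.97% for Cd33, and of 6.90% to 7.87% for those 6. Its common value over all genes was 14.4%, but its trend, the value fitted at the abundance of a gene, was lower for these members. The trend was 8.32% for Siglec1, 7.59% for Cd33 and 8.08% to 9.33% for the other 6. Without replicate 2, Siglec1 was no longer called (adjusted p = 0.407) and its coefficient of variation was 8.70%. Cd33 was called whichever replicate was left out, and without replicate 3 its coefficient of variation was 8.32%.

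**Figure D2:**
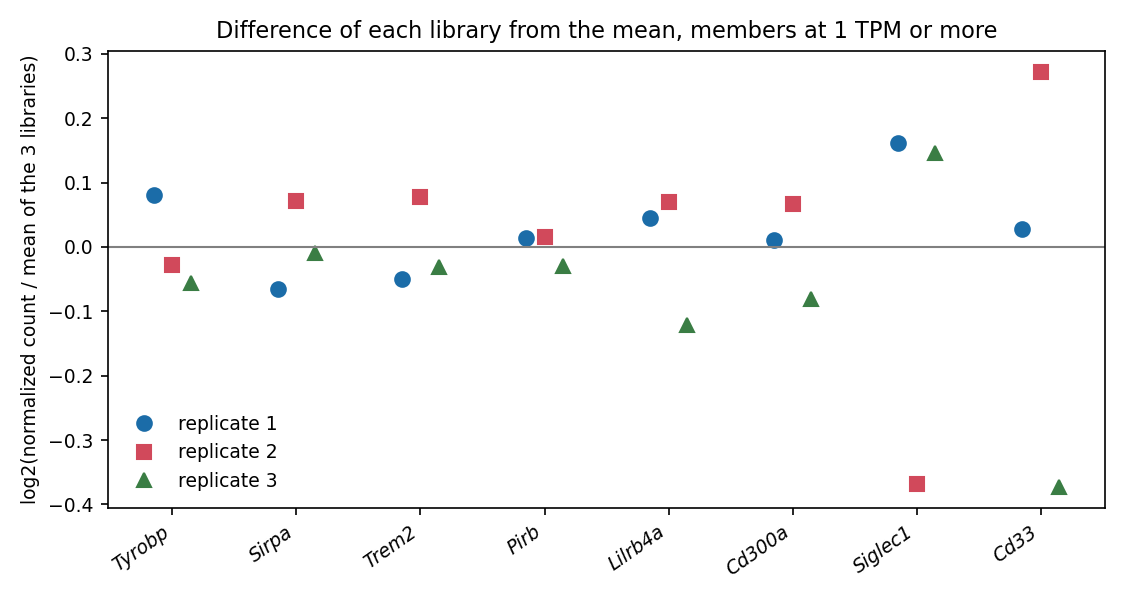
Difference of each library from the mean of the 3, as log2 of normalized counts, for the 8 genes at 1 TPM or more; each point is a library. Siglec1 is low in replicate 2 (−0.37) and Cd33 is high in replicate 2 (0.27) and low in replicate 3 (−0.37), while the other 6 genes stay within 0.13 of the mean.

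Against the same counting error, the calls of several other members were lost without 1 library. Tyrobp was not called without replicate 1 (adjusted p = 0.0660), Trem2 not without replicate 2 (adjusted p = 0.460), and Pirb and Lilrb4a not without replicate 3 (adjusted p = 0.895 and 0.402). Siglece was not called without replicate 1 or without replicate 3 (adjusted p = 0.0839 and 0.485). Sirpa, Cd300a and Cd33 were called in all 3 pairs of libraries. Without replicate 1, 27.5% of all 12785 genes tested were called, against 49.2% with all 3 libraries. Without replicate 2 or replicate 3, 5192 and 4439 of all genes were called, against 6645 with all 3 libraries. Among markers of other cells, the summed TPM of 8 neutrophil and precursor genes was 22.4, 35.9 and 33.7 and that of 8 dendritic cell genes 2.71, 3.43 and 3.10, both lowest in replicate 1. Osteoclast genes, 6 in all, summed to 2.26, 2.13 and 4.36 TPM, highest in replicate 3, where Cd33 was lowest. The 8 macrophage markers summed to 7434, 6500 and 7154 TPM, lowest in replicate 2, as Siglec1 was. Of this sum Lyz2 alone had 5414, 4563 and 4932 TPM. C1qa had 74.2, 47.2 and 70.8 TPM and was also lowest in replicate 2, whereas Mpeg1 was lowest in replicate 1. The part of these markers in the differences of Cd33 and Siglec1 was not tested.

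Of the members above 1 TPM, Pirb and Lilrb4a had the smallest share assigned to coding transcripts. Transcripts annotated as protein-coding took 99.4% of the TPM of Tyrobp, 98.4% of Trem2, 100% of Siglec1, 91.7% of Cd300a, 84.6% of Sirpa and 74.7% of Cd33 in the alignment-based table. For Pirb and Lilrb4a they took 33.4% ± 2.39 and 9.58% ± 3.88 in that table (SD, n = 3). In the second table they took 6.73% ± 0.637 of Pirb (SD, n = 3) and 1.73%, 2.05% and 1.62% of Lilrb4a in replicates 1, 2 and 3. The shares of Lilrb4a leave out the overlapping gene model Gm49339, and how reads were divided between both is uncertain. Within Tyrobp the split was uncertain. Tyrobp-202 took 73.7% ± 4.72 and Tyrobp-201 25.7% ± 4.69 in the first table, but Tyrobp-202 took 99.1% in the second. All 31-base words of Tyrobp-201 lie in Tyrobp-202, which differs by 28 bases at the 5′ end and 5 at the 3′ end, and both hold the ITAM and the membrane stretch printed above. The short processed transcript Sirpa-207, of 400 bases, took 14.4% of the TPM of Sirpa on 0.857% of its counts, since TPM divides by length.

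**Figure D3:**
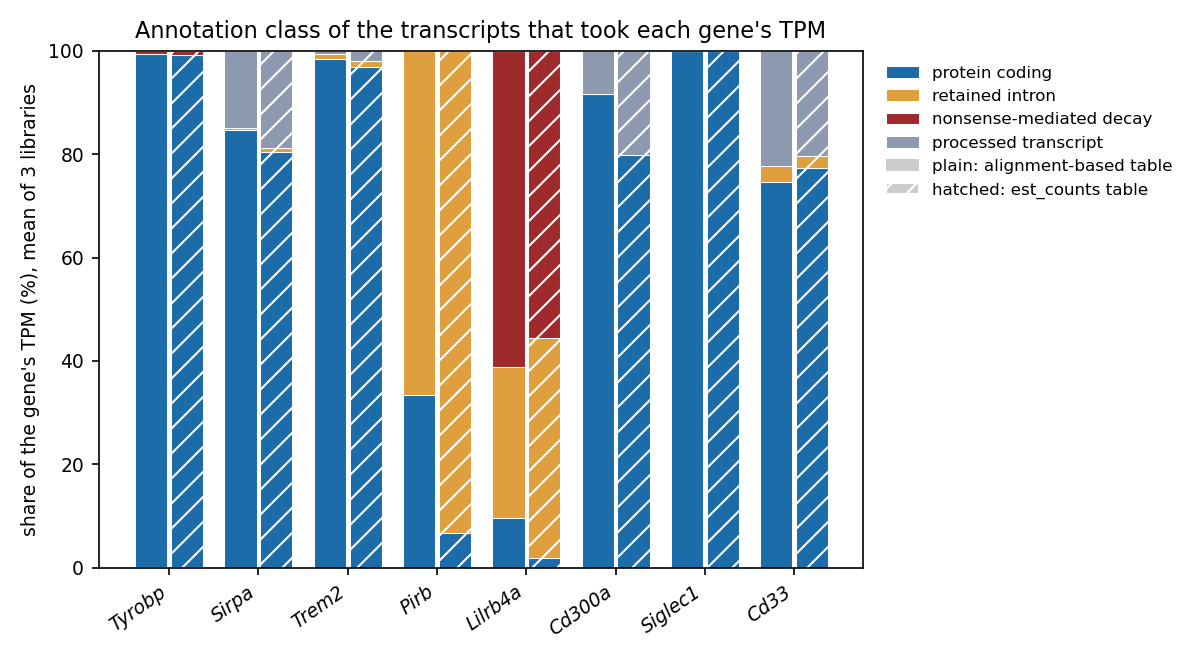
Share of each gene's TPM, as the mean of 3 libraries, taken by transcripts of each annotation class, with the alignment-based table in plain bars and the second, read-based table in hatched bars. Protein-coding transcripts fill 98.4% or more of Tyrobp, Trem2 and Siglec1 in the plain bars, whereas retained introns fill 66.6% of Pirb and the decay class fills 61.2% of Lilrb4a. The shares of Lilrb4a leave out the overlapping gene model Gm49339.

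At gene level both quantifications gave the same order of the 10 genes. On the deposited scale, the second table gave lower TPM for most genes, with a median log2 ratio to the alignment-based table of −0.44, −1.34 and −1.59 in replicates 1, 2 and 3. Once both were scaled over protein-coding genes the median was 0.01, and the members are given on that scale. Tyrobp, Sirpa, Trem2 and Siglec1 lay between −0.07 and 0.02. Cd33 was higher in the second table by 0.32 ± 0.03 and the ratio of Lilrb4a was −0.25 ± 0.06 (log2, SD, n = 3). Pirb and Cd300a were higher by 0.12 ± 0.04 and 0.13 ± 0.04. Siglece had the largest ratio, 0.55 ± 0.44, and Trem1 had −0.04 ± 0.13 (log2, SD, n = 3), both from few counts.

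The signalling genes behind both kinds of receptor were measured as well. Of 21 kinases and effectors of ITAM signalling, 18 reached 1 TPM in all 3 libraries, and of 13 phosphatases and adaptors of ITIM signalling all 13 were. Syk, the kinase that the TYROBP motif recruits, had 65.5, 62.9 and 67.8 TPM. Its T cell relative Zap70 was at or below 0.01 TPM. Pik3ap1 and Lat2, adaptors that link kinases to PI3K and to phospholipase C, had means of 97.2 ± 7.81 and 66.6 ± 8.08 TPM, and the SRC family kinase Lyn, which phosphorylates such motifs, had 40.5 ± 4.28 TPM (SD, n = 3). Ptpn6, which encodes SHP-1, had 45.7, 44.8 and 48.9 TPM and exceeded Ptpn11, which encodes SHP-2, by 4.61 ± 0.14 times (SD, n = 3). Inpp5d, which encodes SHIP1, had 47.2, 49.5 and 47.9 TPM, and Ptprc, which encodes CD45, had 59.5 ± 2.22 TPM. Each of these genes lay below Trem2, the third highest member, in every library.

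**Figure D4:**
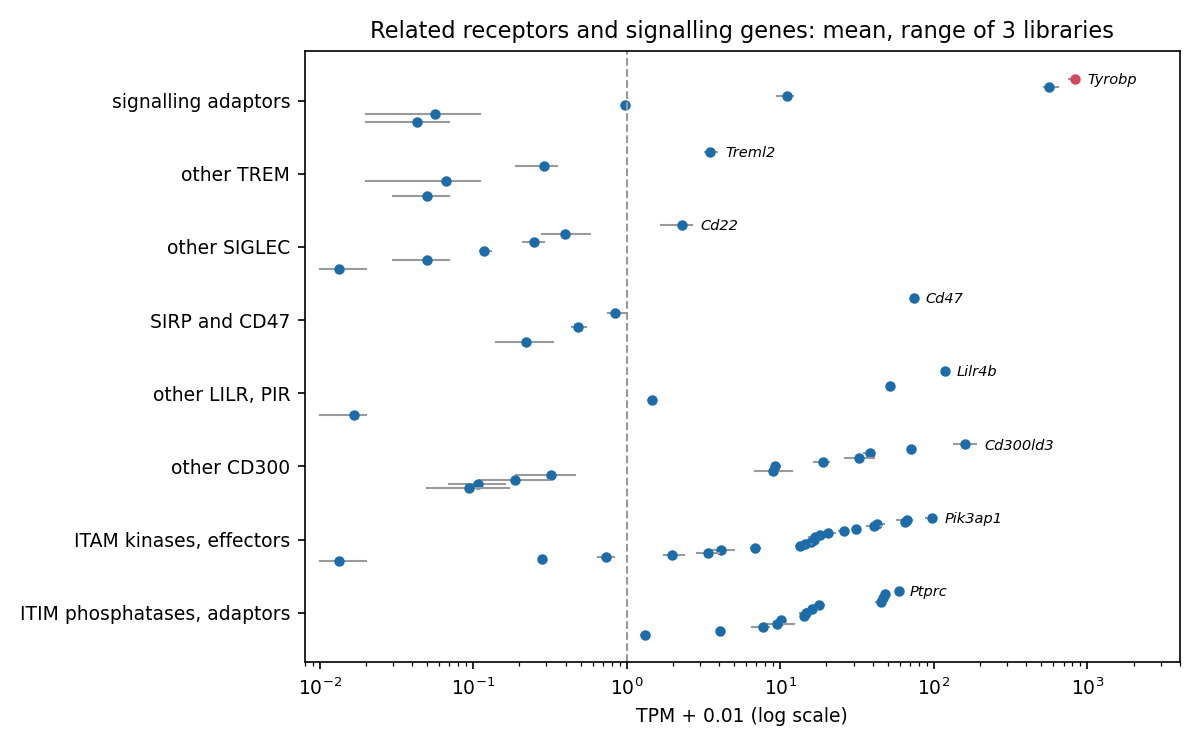
Mean TPM (points) and range of the 3 libraries (lines) for the related receptors, adaptors and signalling genes, on a log axis after adding 0.01; the highest gene of each group is named, the red point is Tyrobp and the dashed line marks 1 TPM. Tyrobp and, beside it, Fcer1g stand at the right, while most other TREM and SIGLEC genes lie below 1 TPM.

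Ligands and proteases that act on these receptors ranged widely, and 8 of 12 reached 1 TPM in all 3 libraries. Apoe, a ligand of TREM2, had 1747, 1716 and 2396 TPM, highest in replicate 3. Lgals3, which encodes galectin-3, came next in the list at 1444 ± 201 TPM, followed by Vim at 419 ± 92.3, Hspa8 at 389 ± 30.4, Calr at 224 ± 25.4 and Hmgb1 at 46.8 ± 8.52 TPM (SD, n = 3). Adam10 and Adam17, proteases that shed the TREM2 ectodomain, had 22.9 ± 2.68 and 27.5 ± 1.35 TPM (SD, n = 3). Clu, another TREM2 ligand, and Pglyrp1, a ligand of TREM1, had means of 0.03 and 0.227 TPM. Among 18 other paired and ITIM receptors, 11 reached 1 TPM in all 3 libraries. Fcgr2b, the inhibitory Fc receptor, was the highest of these at 190.3, 153 and 183 TPM, followed by Clec12a at 49.8 ± 6.27 and Cd200r1 at 34.4 ± 4.29 TPM (SD, n = 3).

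The label of the cells was checked on markers. The 8 macrophage markers all reached 1 TPM in each library, among them Csf1r at 289 ± 18.0 TPM (SD, n = 3). Of the neutrophil markers only S100a8 and S100a9 were, and Ly6g had no count. None of the 6 B cell and 6 T and NK cell markers reached 1 TPM in every library. Of the microglial markers, Tmem119 and Sall1 were at or below 0.04 TPM.

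Protein-coding genes nearest in level to the 3 highest members, by the smallest largest difference of log2(TPM + 1) over the 3 libraries, were as follows. Nearest to Tyrobp was C1qb, a complement component, at 817, 691 and 812 TPM, within 0.13, then Rps29 within 0.15 and Rpl41 within 0.21. Nearest to Trem2 was Sdcbp, within 0.02, then Rps25 within 0.05 and Pld3, a lysosomal protein, within 0.10. Nearest to Sirpa was Actg1, within 0.14, then Akr1a1 and Ctsz, a lysosomal protease, both within 0.15.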

How the data were processed

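Per the file headers, the authors derived expected counts and TPM per gene and per transcript from alignments (assembly mm10, annotation M21), and estimated counts and TPM per transcript from the reads directly in a second table. The tools, their versions and the strandedness were not given in the sources used here. Few short RNAs hold most of the TPM: protein-coding genes took 24.2%, 24.1% and 26.3% in the gene table and 17.6%, 9.16% and 8.32% in the second, so TPM was also rescaled over protein-coding genes. All 55536 Ensembl identifiers matched GENCODE M21, which gave loci and sequences.

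The members, gene lists and tests were chosen with earlier results of these data known. The rule for naming admitted all 10 members, list genes at 10 TPM or more (up to the 8 highest of a list), list genes at 1 to 10 TPM and the 3 genes nearest to Tyrobp, Trem2 and Sirpa. Not every list gene it admits is named; the lists are given by counts and examples. Other genes, including list genes below 1 TPM, were named after their values were seen. Counts were rounded for a chi-square test against TMM sizes, run on genes that had at least 30 counts in sum, and p-values were adjusted by Benjamini-Hochberg at 0.05. Shared sequence was counted in words of 31 bases. A pseudocount of 1 was used, which understates differences of low genes, and 0.1 for ratios. Alternatives varied scaling, filters, quantification and libraries. Computations ran in R 4.3.3 with DESeq2 1.42.0 and edgeR 4.0.16, and in Python 3.11.15 with pandas 2.3.3, scipy 1.17.1 and numpy 2.4.6.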

Additional observations from a re-analysis of the deposited data

How the results depend on the processing

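The order of the 9 neighbour pairs kept its direction with a pseudocount of 0.1, with TPM rescaled over protein-coding genes and with the second transcript table. Counting Gm49339 with Lilrb4a, a sum taken after the values were seen, put 171 TPM above the 103 TPM of Pirb. The count of 8 members at 1 TPM or more was also 8 at thresholds of 0.5 and 5 TPM, and in the second table. Both held in every single library, so leaving out a replicate could not change them. The 9 members called between libraries were 9 with DESeq2 size factors, with total counts and without the count filter, 8 with the estimated counts (Siglece was not called) and 6 to 7 without 1 replicate. Over all genes, 6645 calls became 3518 to 5192 without 1 replicate, the fewest without replicate 1, and 8798 with the estimated counts. Fits without a replicate hold fewer libraries and counts. Levels in TPM moved with every change of scale, by construction. No paired analysis was possible because the study holds only 1 group. Depth limits Trem1 and Siglece, whose 6 to 37 counts per library leave isoforms and spread unresolved.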
